A study of Mus musculus with 8 samples.

Results

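The 32 genes described here encode chemokine ligands of the mouse. They were chosen by name as members of the chemokine family, and 31 of them had a probe on the array that could be named through its transcript accession, of 20144 named genes in all. Cxcl11 was not analysed here. Of the 31, 19 belong to the CC class, 10 to the CXC class, and Cx3cl1 and Xcl1 stand for the remaining classes.

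Gene expression was measured on 8 one-colour mouse microarrays, with 1 array for each group and no replicate of any group. On 5 arrays the RNA came from liver cells freed with collagenase from embryos (E11.5, E13.5, then E14.5, then E17.5) or newborns (P1) and sorted by FACS as p75NTR(+) and negative for CD45 and Ter119. The p75 neurotrophin receptor is a surface protein used to sort hepatic stellate cells and their precursors, while CD45 and Ter119 mark leukocytes and erythroid cells. The other arrays held vitamin A-positive stellate cells of the adult liver, also obtained by sorting (adult HSC), cultured embryonic skin fibroblasts (MEF) and purified mesenchymal stem cells from bone marrow (MSC). Mouse strain, and whether animals were pooled for an array, are not given in the sources used here.

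Chemokines are small secreted proteins, in a few cases tethered to the membrane, that bind G-protein-coupled receptors on leukocytes and guide their movement along gradients held on proteoglycans. CC and CXC chemokines are named for the spacing of conserved cysteines. Monocyte-attracting CC ligands such as Ccl2 and neutrophil-attracting CXC ligands such as Cxcl1 are well-known NF-kB target genes, whereas ligands such as Ccl19, Cxcl13 and Ccl25 are best known from lymphoid organs and epithelia. In the liver, stellate cells, endothelial cells, hepatocytes and Kupffer cells are all known sources of chemokines.

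Values are given as levels, the log2 processed signal of a probe minus the log2 75th percentile signal of its array, so that 0 is a signal at the 75th percentile and 1 unit is a doubling. A probe was counted as above background where the scanner software called its spots well above background. Levels of different genes come from different probes and are not compared with each other. In bulk RNA, fewer cells of a type and less RNA per cell cannot be told apart.

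All arrays were of similar technical yield, with 58.8% to 64.5% of 43020 spots well above background and no saturated spot. The E11.5 array stood apart by a flatter spike-in response, with a slope of 0.849 against 0.922 to 0.933 on the other 7 arrays. The 4 fetal arrays shared slide 1, and P1, adult HSC, MEF and MSC shared slide 2. All 14 markers of stellate cells and of the p75NTR sort were above background on each of the 6 liver-derived arrays, with 11 on the MEF array and 8 on the MSC array. Of 11 fibroblast and stromal markers, 10 or 11 were above background on each array, with Lum below it on the MSC array. Markers of other cell types were present too. Ptprc, which encodes CD45, was above background only on the MEF and MSC arrays. The cut-off differs by array, and the Ptprc level in MSC (-6.29) was lower than that in adult HSC (-5.84). The 10 hepatocyte and hepatoblast markers summed to 7.07 times the 75th percentile signal at E11.5, 358 at E13.5, 1095 at E14.5, 101 at E17.5, 57.2 at P1 and 4.62 in adult HSC, and the 14 macrophage markers summed to 26.5 on the MEF array against 0.521 to 1.99 on the other 7.

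A smaller share of the chemokine ligands than of all genes was above background on each array, though the gap varied. It was widest at E11.5 (38.7% against 67.3%), and in MEF the shares were nearly equal (71.0% against 72.2%). On all 8 arrays 7 of the 31 ligands (22.6%) were above background, namely Ccl2, Ccl19, Ccl25, Ccl27a, Cxcl1, Cxcl16 and Cx3cl1, against 56.5% of all named genes. Another 19 were above background on 1 to 7 arrays. The 5 that were above it on none were Ccl20 and Ccl22, which attract lymphocytes and dendritic cells, the neutrophil-attracting Cxcl3, the lung ligand Cxcl15, and the lymphocyte product Xcl1.

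The count of ligands above background was 12 at E11.5, 15 at E13.5, 18 at E14.5, 18 at E17.5, 20 at P1, 18 in adult HSC, 22 in MEF and 16 in MSC. The CC ligands made up most of this spread, with 5, 8, 11, 11 and 12 of 19 above background at the successive stages, 12 in adult HSC, 15 in MEF and 11 in MSC. The CXC ligands held at 6 of 10 from E11.5 to E17.5, with 7 at P1, 5 in adult HSC, 6 in MEF and 4 in MSC. For all named genes the share above background lay between 65.3% in adult HSC and 72.4% at P1, and it was 67.3% at E11.5. The cut-off differed by array, and the lowest level called above background ran from -5.36 at E11.5 to -6.58 in MSC. At E14.5, where it was -5.73, Ccl12 (-5.59), Ccl17 (-5.67) and Ccl24 (-5.60) were counted at levels under the E11.5 cut-off. Part of the rise in counts from E11.5 may thus reflect the cut-off. Under the more lenient flag of the scanner software, for signals positive and different from background, the ligand counts were higher on every array, from 18 at E11.5 to 26 at P1.

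**Figure D1:**
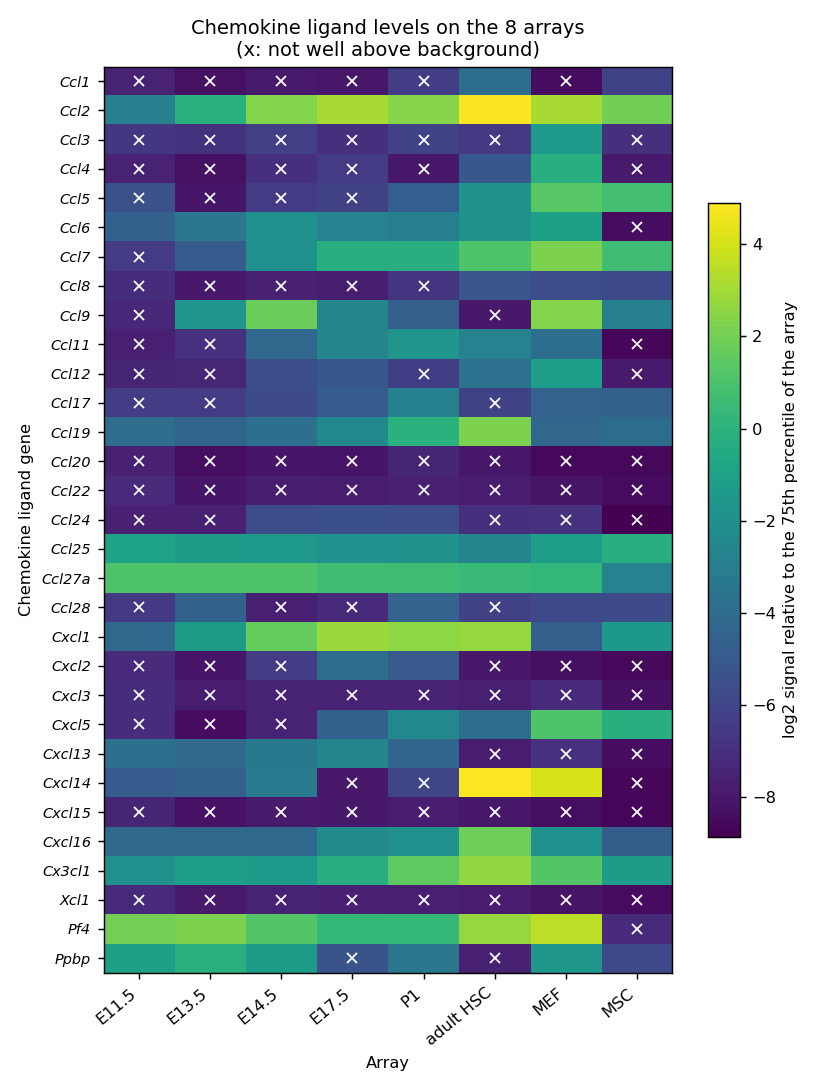
Levels of the 31 chemokine ligands (rows) on the 8 arrays (columns), as log2 signal relative to each array's 75th percentile, with cells marked where a ligand was not above background. The E11.5 column has 12 ligands above background and the MEF column has 22; colours may be compared along a row, not down a column.

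Among the monocyte-attracting CC ligands, Ccl2 and Ccl7 had higher levels on the later liver arrays than at E11.5, whereas Ccl8 was below background at all 5 stages. Ccl2, which recruits monocytes through Ccr2, had a level of -2.88 at E11.5, -0.12 at E13.5, 2.38 at E14.5, 3.13 at E17.5 and 2.43 at P1. It stood at 4.85 in adult HSC, 3.12 in MEF and 1.98 in MSC. E11.5 was the lowest of the 8 arrays, and adult HSC the highest. Ccl2 was 64.6-fold higher at E17.5 than at E11.5 and 5.36-fold higher in adult HSC than at P1, each between single arrays.

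Ccl7, another monocyte attractant and the gene next to Ccl2, was below background at E11.5 (-6.43) and had levels of -4.85 at E13.5, -1.94 at E14.5, -0.21 at E17.5 and -0.15 at P1. It stood at 1.11 in adult HSC, 2.21 in MEF and 0.69 in MSC. Every step from one stage to the next was upward, and the 3 remaining arrays all lay above P1. The E17.5 signal was at least 35.6-fold higher than at E11.5, a bound that sets the E11.5 side at the lowest signal called above background on that array.

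Ccl11, the eotaxin that attracts eosinophils, was below background at E11.5 (-7.65) and E13.5 (-6.93) and had levels of -4.19 at E14.5, -2.59 at E17.5 and -1.66 at P1. It stood at -2.76 in adult HSC and -3.89 in MEF, and it was below background in MSC (-8.68). The 3 later stages were thus above both early ones, and Ccl11 was at least 6.82-fold higher at E17.5 than at E11.5. Ccl12, a mouse relative of Ccl2, was above background at E14.5 (-5.59), E17.5 (-5.11), in adult HSC (-3.75) and in MEF (-1.19), and on no other array. Ccl8, another monocyte attractant, was above background outside the staged series only, at -5.21 in adult HSC, -5.60 in MEF and -5.79 in MSC. Ccl1, a ligand of Ccr8, was above background in adult HSC (-3.90) and MSC (-6.19).

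Ccl2, Ccl7, Ccl11, Ccl12, Ccl8 and Ccl1 follow each other in that order in the RefSeq gene table, with no other protein-coding gene between them. The highest array differed within this run of 6 neighbours. It was adult HSC for Ccl2, Ccl8 and Ccl1, MEF for Ccl7 and Ccl12, and P1 for Ccl11. The number of arrays above background differed too, and it depends on the brightness of each probe as well. Ccl2 was above background on all 8 arrays, Ccl7 on 7, Ccl11 on 5, Ccl12 on 4, Ccl8 on 3 and Ccl1 on 2. All 6 were above background in adult HSC.

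Ccl24 and Ccl17 lie outside that run. Ccl24, a second eotaxin, was above background only at E14.5 (-5.60), E17.5 (-5.53) and P1 (-5.63), with levels close to each other. Ccl17, which attracts T cells through Ccr4, was below background at E11.5 (-6.37) and E13.5 (-6.43) and had levels of -5.67 at E14.5, -4.87 at E17.5 and -2.84 at P1. It was below background in adult HSC (-6.21), at least 8.60-fold lower than at P1, and stood at -4.53 in MEF and -4.64 in MSC. P1 was its highest array.

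Neutrophil-attracting CXC ligands are close relatives but differed in where they were above background. Cxcl1, Cxcl2, Cxcl3, Cxcl5 and Cxcl15 lie in a run of 7 neighbouring genes with Pf4 and Ppbp. Promoter sequences of Cxcl1, Cxcl2 and Cxcl3 are shown because these 3 genes carry the same 11 letters upstream of their start. Each gene was read by its own probe, and whether these letters had a part in the levels was not tested. The 250 bases before each RefSeq transcription start on GRCm38.p6 read as follows, 5′ to 3′ on the plus strand, for chr5:90890995-90891244 (Cxcl1), chr5:90903649-90903898 (Cxcl2) and chr5:90785851-90786100 (Cxcl3). Capitals mark GGGAATTTCCC, which is a pair of overlapping matches to the NF-kB consensus.
Cxcl1: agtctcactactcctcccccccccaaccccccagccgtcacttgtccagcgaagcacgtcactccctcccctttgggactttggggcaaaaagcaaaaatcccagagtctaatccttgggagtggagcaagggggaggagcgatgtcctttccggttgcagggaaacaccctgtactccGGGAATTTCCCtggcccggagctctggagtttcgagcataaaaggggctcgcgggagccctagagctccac
Cxcl2: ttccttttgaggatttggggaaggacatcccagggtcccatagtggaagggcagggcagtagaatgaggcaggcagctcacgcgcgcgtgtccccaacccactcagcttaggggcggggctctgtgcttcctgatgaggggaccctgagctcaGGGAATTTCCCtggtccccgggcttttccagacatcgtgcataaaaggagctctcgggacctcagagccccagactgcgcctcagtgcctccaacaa
Cxcl3: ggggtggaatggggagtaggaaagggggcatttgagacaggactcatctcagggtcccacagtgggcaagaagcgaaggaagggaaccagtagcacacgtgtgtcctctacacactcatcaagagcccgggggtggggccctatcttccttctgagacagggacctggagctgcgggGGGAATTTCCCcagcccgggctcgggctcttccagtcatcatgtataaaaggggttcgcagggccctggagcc
The first of each pair of matches begins 71 bases before the start in Cxcl1, 97 in Cxcl2 and 73 in Cxcl3. Searched on both strands, the NF-kB consensus was present in 3.90% of 32851 RefSeq promoters of this length, and in 5 of the 26 promoters that matched 23 of the ligands, those of Ccl9, Ccl20, Cxcl1, Cxcl2 and Cxcl3. Ccl2, Ccl4, Ccl5, Ccl7, Ccl11, Ccl24, Cxcl5, Cxcl11 and Cxcl16 had no promoter in the set, so no motif was searched for in them. The letters TGANTCA, the AP-1 site, were present in 6.75% of promoters and in those of Ccl9, Ccl27a and Ppbp, and TATAAA in 12.4% and in those of 9 ligands. Ccl9 held a match to all 3 letter patterns, the AP-1 one in its loose form only. A match is a description of letters, not a measured site.

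Cxcl1 had a level of -4.24 at E11.5, -1.36 at E13.5, 1.66 at E14.5, 2.84 at E17.5 and 2.59 at P1. It stood at 2.71 in adult HSC, -4.72 in MEF and -1.53 in MSC. The 4 liver-derived arrays from E14.5 onward were all above the other arrays, and MEF and E11.5 were the 2 lowest. Cxcl1 was 136-fold higher at E17.5 than at E11.5, the widest ratio among the ligands above background on both of these arrays, and adult HSC and P1 differed 1.09-fold.

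Cxcl2 was above background at E17.5 (-4.00) and P1 (-5.01) only, and the E17.5 signal was at least 2.56-fold higher than at E11.5. Cxcl3 was above background on no array. Cxcl5, which attracts neutrophils through Cxcr2 as the former do, was below background at E11.5 (-7.14), E13.5 (-8.40) and E14.5 (-7.49) and had levels of -4.64 at E17.5, -2.46 at P1, -3.96 in adult HSC, 1.13 in MEF and -0.25 in MSC. Its MEF and MSC levels were above all 6 liver-derived ones. Cxcr2, their shared receptor, was below background on all 8 arrays.

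The neutrophil proteins S100a8 and S100a9 moved with Cxcl1 over the stages. S100a9 was below background at E11.5 (-5.86) and had levels of -1.88 at E13.5, 0.80 at E14.5, 2.82 at E17.5 and 2.51 at P1, while it was below background in adult HSC (-8.18), where Cxcl1 was not. The 15 markers of leukocytes, neutrophils and lymphocytes had 8 members above background at E11.5, 9 at E13.5 and E14.5, and 10 at E17.5 and P1, with summed signals from 1.54 at E13.5 to 11.6 at E17.5. S100a8 and S100a9 belong to that list and its sum, and other members moved differently. Laptm5 went from -3.24 at E11.5 to below background at E17.5 (-6.31), and Lcp1 from -2.43 to -4.91. Of 11 markers tested between E17.5 and E11.5, 4 were 4-fold or more higher and 2 lower, against 7.37% and 5.01% of all genes. The part of such cells in the staged levels of Cxcl1 and the other ligands was not tested.

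**Figure D2:**
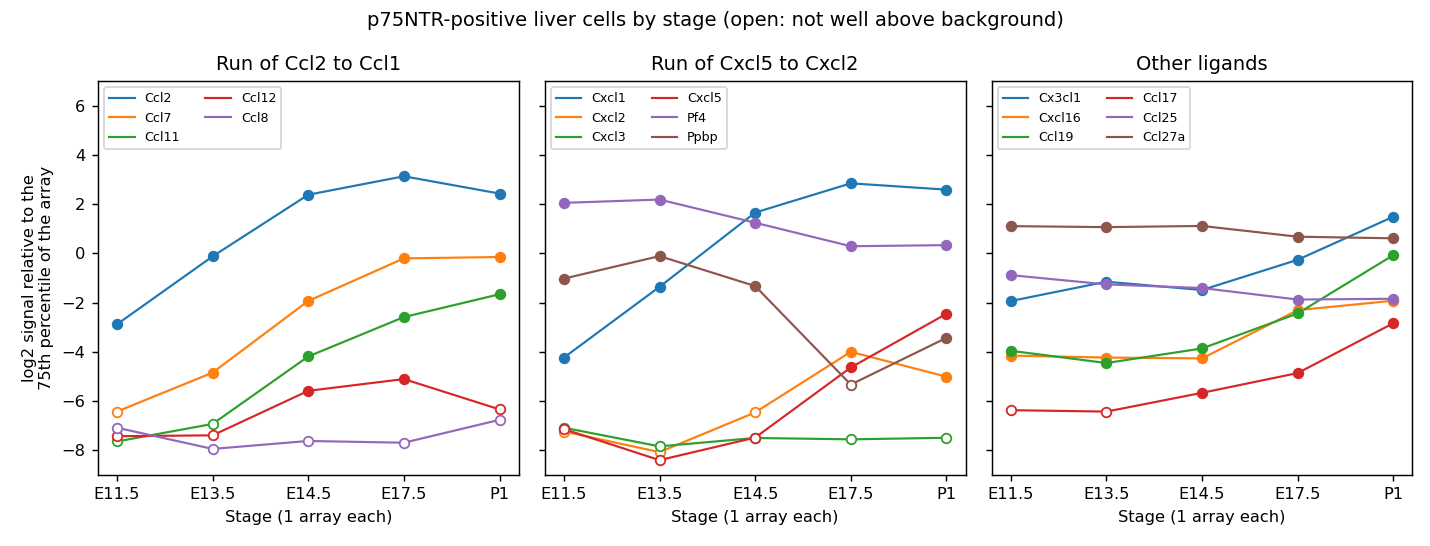
Levels of ligands over the 5 p75NTR(+) stages in order, as log2 signal relative to the array's 75th percentile, 1 array a stage with no error bar because no stage was repeated, and open circles where not well above background. Between E11.5 and E17.5, Ccl2 goes from -2.88 to 3.13, Cxcl1 from -4.24 to 2.84 and Pf4 from 2.05 to 0.29, while Cxcl3 is open at every stage.

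The membrane-tethered ligands Cx3cl1 and Cxcl16, which can be shed by Adam10 and Adam17, were above background on all arrays and highest in adult HSC. Cx3cl1 (fractalkine) had a level of -1.94 at E11.5, -1.15 at E13.5, -1.49 at E14.5, -0.26 at E17.5, 1.49 at P1, 2.68 in adult HSC, 1.22 in MEF and -1.24 in MSC. Its receptor gene, Cx3cr1, was above background on the MEF array only (1.22). Cxcl16 lay between -4.27 and -4.16 at the 3 earliest stages and stood at -2.31 at E17.5, -1.93 at P1, 1.88 in adult HSC, -1.88 in MEF and -4.79 in MSC. Between adult HSC and P1 the difference was 3.80 log2 units for Cxcl16 and 1.19 for Cx3cl1. The sheddase genes Adam10 (1.89 to 2.92) and Adam17 (-3.94 to -1.96) were above background on all 8 arrays.

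Among the ligands of lymphoid organs and epithelia, Ccl19 on its brightest probe shared the order of the 4 fetal arrays with Cxcl13. These ligands differed at P1 and in adult HSC, which were the highest liver-derived arrays for Ccl19 and the lowest for Cxcl13. Ccl19, which guides cells bearing Ccr7, had a level of -3.96 at E11.5, -4.46 at E13.5, -3.87 at E14.5, -2.44 at E17.5, -0.07 at P1, 2.19 in adult HSC, -4.34 in MEF and -4.01 in MSC. P1 and adult HSC were the 2 highest arrays, with adult HSC 4.81-fold above P1. Its 2 other probes gave the same order of P1 and adult HSC above the rest, at -0.48 and 1.87 on one and 0.74 and 2.82 on the other. Both of these probes were below background at E11.5 (-6.01 and -7.23), where the brightest was not, so the distance from E11.5 depends on the probe. E11.5 was the lowest fetal array on both of them, so the fetal order shared with Cxcl13 held on the brightest probe only.

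Cxcl13, the B-cell attractant, was above background at all 5 stages, at -3.79, -4.12, -3.30, -2.57 and -4.39 in order, and was below it in adult HSC (-7.78), MEF (-6.93) and MSC (-8.44). P1 was at least 2.95-fold above adult HSC. Ccl25, known from thymus and gut epithelium, ranged from -2.58 in adult HSC to -0.19 in MSC, with -0.89 at E11.5 and -1.85 at P1. A second Ccl25 probe was above background on 7 arrays and had its highest level in adult HSC (-3.85), so the order of the arrays was not the same on both probes.

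Ccl27a, a skin and epithelial ligand with close copies in the mouse genome that its probes may also read, had similar levels on all liver-derived arrays by its brightest probe. They ran from 0.49 in adult HSC to 1.11 at E14.5, with 0.23 in MEF and -2.78 in MSC. MSC was 8.06-fold below MEF. A second probe gave the same picture (0.28 in MEF and -3.36 in MSC), and another probe stood at -1.43 in MEF and -4.01 in MSC. That last probe varied more in the liver, from -2.76 in adult HSC to -0.88 at P1, with E14.5 (-1.58), E17.5 (-1.55) and adult HSC below MEF. Ccl28, a mucosal ligand, was above background at E13.5 (-4.61), P1 (-4.53), MEF (-5.85) and MSC (-5.68).

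Cxcl14, a ligand of epithelia and fibroblasts, had the widest range over the 8 arrays of all the ligands. It had levels of -4.86 at E11.5, -4.66 at E13.5 and -3.20 at E14.5, was below background at E17.5 (-7.91) and P1 (-6.02), and stood at 4.91 in adult HSC and 4.06 in MEF. It was below background in MSC (-8.65). Adult HSC was at least 1665-fold above P1, and MEF at least 1600-fold above MSC.

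The platelet ligands Pf4 and Ppbp, stored in megakaryocytes and platelets, were high in the early liver arrays. Pf4 had a level of 2.05 at E11.5, 2.18 at E13.5, 1.24 at E14.5, 0.29 at E17.5 and 0.33 at P1, with 2.71 in adult HSC, 3.56 in MEF and a signal below background in MSC (-7.19). Ppbp had levels of -1.03 at E11.5, -0.11 at E13.5 and -1.33 at E14.5, was below background at E17.5 (-5.33), and stood at -3.43 at P1 and -1.60 in MEF. It was below background in adult HSC (-7.63) and at -5.86 in MSC. The E11.5 signal of Ppbp was at least 19.8-fold above E17.5, and the P1 signal at least 5.70-fold above adult HSC.

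Markers of megakaryocytes and platelets were present on these arrays. Of 15 such markers, 11 were above background at E11.5, 14 at E13.5, 11 at E14.5, 10 at E17.5, 11 at P1, 8 in adult HSC, 8 in MEF and 6 in MSC, with summed signals from 0.528 in MSC to 42.5 in adult HSC. Most of the adult HSC sum came from 1 gene, the integrin Itgb3, at a level of 5.33. Treml1, which is made almost only by megakaryocytes and platelets, had levels of -0.77, 0.19, -2.14, -5.31 and -3.17 over the stages and was below background in adult HSC (-8.19). Its highest array was E13.5 and its lowest liver-derived stage E17.5, as for Ppbp. Gp9, a part of the platelet von Willebrand factor receptor, had levels of -2.30, -1.79, -3.06, -4.51 and -3.32 over the stages and was below background in adult HSC (-7.42), MEF (-7.32) and MSC (-8.26). In adult HSC and MEF, Pf4 was high while Gp9 was below background. The part of such cells in the Pf4 and Ppbp levels was not tested.

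Ccl3, Ccl4, Ccl6 and Ccl9, which myeloid cells can make, were each highest on the MEF array, as was Ccl5. Ccl3, which attracts monocytes and T cells, was above background in MEF only (-1.41). Ccl4, its close relative, was above background in MEF (-0.23) and adult HSC (-5.09). Ccl6 had levels from -4.62 at E11.5 to -1.95 at E14.5 over the stages, -1.86 in adult HSC and -1.07 in MEF, and was below background in MSC (-8.42). Ccl5, the T-cell attractant also called RANTES, was below background up to E17.5 and stood at -4.75 at P1, -1.84 in adult HSC, 1.33 in MEF and 0.81 in MSC.

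Ccl9, a macrophage-associated ligand, was below background at E11.5 (-7.26) and had levels of -1.64 at E13.5, 1.75 at E14.5, -2.55 at E17.5 and -4.68 at P1. It was below background in adult HSC (-7.95) and stood at 2.36 in MEF and -2.87 in MSC. E14.5 was thus the highest liver array, with lower levels on both sides. The hepatocyte markers had their highest sum on the same array, with Alb, the gene of serum albumin, at -2.03 at E11.5, 5.55 at E13.5, 7.19 at E14.5, 4.18 at E17.5 and 2.78 at P1. Ccl9 was high in MEF, where Alb was below background (-7.48). Whether hepatocyte RNA had a part in the staged Ccl9 levels was not tested.

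Ccl5, Ccl9, Ccl6, Ccl3 and Ccl4 are also direct neighbours in the RefSeq gene table. All 5 had their highest level on the MEF array. Of 14 macrophage and Kupffer cell markers, 12 were above background in MEF, where C1qa stood at 1.60, C1qc at 2.08, Tyrobp at 2.20 and Csf1r at 3.18. The Kupffer cell markers Clec4f (-8.48) and Timd4 (-8.44) were below background there, and Timd4 was below it on every other array too. Vsig4 (-3.47), Cd5l (-4.66) and Marco (-2.44) of the same list were above background in MEF. On the liver arrays 3, 5, 8, 9 and 10 of the 14 were above background over the stages and 12 in adult HSC, and 3 were in MSC. The part of macrophages in the MEF levels of these ligands was not tested.

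**Figure D3:**
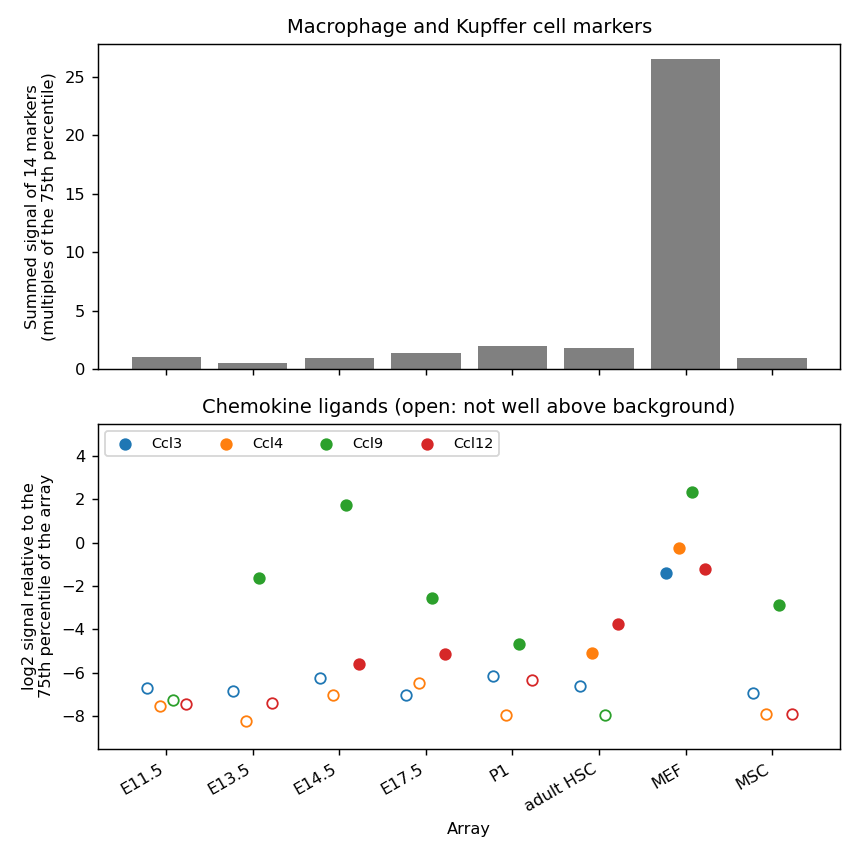
Upper panel, bars of the summed signal of 14 macrophage and Kupffer cell markers on each of the 8 arrays, in multiples of the array's 75th percentile; lower panel, levels of Ccl3, Ccl4, Ccl9 and Ccl12 as log2 signal relative to that percentile, open where not well above background. The MEF bar reaches 26.5, and the MEF array holds the highest level of Ccl3 (-1.41), Ccl4 (-0.23), Ccl9 (2.36) and Ccl12 (-1.19).

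A slope over the 5 stages, taken in order, asked which ligands changed from E11.5 to P1. It was fitted with limma across 15492 genes, and 22 of the 31 ligands passed the filter of being above background at 1 stage or more. No ligand passed a Benjamini-Hochberg adjusted p of 0.05, as 0% of all genes did. At an unadjusted p of 0.05 the limma fit gave 13 of 22 ligands (59.1%), against 27.9% of all genes. The slope was upward for 11 (50%), against 12.5% of all genes, and downward for 2, against 15.5%. A ligand that passed the filter through its late stages alone could hardly slope downward, so these shares describe the ligands and support no call. The median slope was 0.53 log2 units a stage for the ligands and -0.03 for all genes.

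The steepest slopes belonged to the ligands with values given above. Cxcl1 had a slope of 1.79 ± 0.33 (SE, limma adjusted p = 0.0781), Ccl7 of 1.72 ± 0.23 (limma adjusted p = 0.0639), Ccl11 of 1.63 ± 0.15 (limma adjusted p = 0.0591) and Ccl2 of 1.39 ± 0.35 (limma adjusted p = 0.102), in log2 units a stage over 5 arrays. Within the 4 fetal arrays of slide 1 the slopes were 2.43 for Cxcl1, 2.16 for Ccl7, 1.79 for Ccl11 and 2.05 for Ccl2. The other upward slopes at an unadjusted p of 0.05 in limma were those of Cxcl5 (1.31), Ccl19 (0.98), Ccl17 (0.86), Cxcl2 (0.85), Cx3cl1 (0.77), Cxcl16 (0.64) and Ccl24 (0.60). Downward slopes were those of Pf4 (-0.53 ± 0.11, limma adjusted p = 0.0836) and Ccl25 (-0.25 ± 0.06, limma adjusted p = 0.103). Among 10 ligands above background at all 5 stages none moved the same way at every step, as 3.33% of such genes did upward and 7.74% downward. With normexp background correction the slopes of Ccl17 (-0.14), Ccl24 (-0.28), Cxcl2 (-0.22), Cxcl5 (-0.05) and Cxcl16 (-0.02) turned downward.

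E17.5 was set against E11.5 as a pair of arrays on one slide, with no test because each side is 1 array. Of 20 ligands above background on at least 1 of the pair, 11 were 4-fold or more apart, against 12.4% of all genes. At E17.5, 9 were higher, against 7.37% of all genes, and 2 were lower, against 5.01%. Ccl2 and Cxcl1 were the only ones of these above background on both arrays. They were 2 of 10 such ligands, while 7.73% of all genes above background on both were 4-fold apart. The others were higher from a signal below background at E11.5, namely Ccl7, Ccl11, Ccl9 (at least 7.0-fold), Cxcl2, Cxcl5 (at least 1.65-fold), Ccl12 (at least 1.19-fold) and Ccl24 (no bound above 1). Ppbp and Cxcl14 (at least 1.96-fold) were the lower ones. With normexp correction 2 ligands were higher and 0 lower, and 74.9% of the genes 4-fold apart were higher in place of 59.5%.

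Adult HSC against P1 compared the vitamin A-positive cells of the adult with the last p75NTR(+) stage, and the sort changed together with age. Of 25 ligands, 14 were 4-fold or more apart, against 21.2% of all genes. In adult HSC, 9 were higher, against 5.19% of all genes, and 5 were lower, against 16%. Both arrays were above background for 5 of the higher ones, Cxcl16, Ccl5 (7.50-fold), Ccl2, Pf4 (5.20-fold) and Ccl19, and for none of the lower ones. They were 5 of 13 such ligands, against 11.8% of genes. The other higher ligands were Cxcl14, Ccl12 (at least 4.12-fold), Ccl1 (at least 3.71-fold) and Ccl4 (at least 1.63-fold). The lower ones were Ccl17, Ppbp, Cxcl13, Ccl9 (at least 2.40-fold) and Cxcl2 (at least 1.91-fold), and lower by 4-fold or more as well were 9 of 10 hepatocyte markers, 8 of 8 biliary and epithelial markers and 4 of 5 mesothelial markers. The part of those cells in the lower ligands was not tested. Dividing by the array median in place of the 75th percentile moved the median difference of all genes from -0.06 to 0.72 and the share of higher genes among those called from 24.5% to 47.7%, and gave 11 ligands higher and 5 lower. Normexp correction gave 5 higher and 0 lower, with 38.7% of called genes higher.

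MSC set against MEF had the opposite balance. Of 23 ligands, 14 were 4-fold or more apart, against 18.9% of all genes. In MSC, 12 were lower, against 15.8% of all genes, and 2 were higher, against 3.06%. On both arrays above background, 6 of 15 ligands were 4-fold apart, against 9.78% of genes. Those 6 were Ccl9 (37.4-fold lower), Ppbp (19.1-fold lower), Ccl27a, Cxcl16 (7.55-fold lower), Cx3cl1 (5.48-fold lower) and Cxcl1 (9.11-fold higher). The remaining lower ligands were below background in MSC, with MEF at least 1134-fold higher for Pf4, 82.0-fold for Ccl4, 45.8-fold for Ccl6, 42.0-fold for Ccl12, 36.2-fold for Ccl3 and 6.50-fold for Ccl11, beside Cxcl14. Ccl1 was at least 1.09-fold higher in MSC. All 12 macrophage markers tested in this pair were 4-fold or more lower in MSC. Dividing by the array median moved the median of all genes from 0.03 to 0.63 and the share of higher genes from 16.2% to 35.8%, and gave 2 ligands higher and 11 lower. Normexp correction gave 0 higher and 8 lower.

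**Figure D4:**
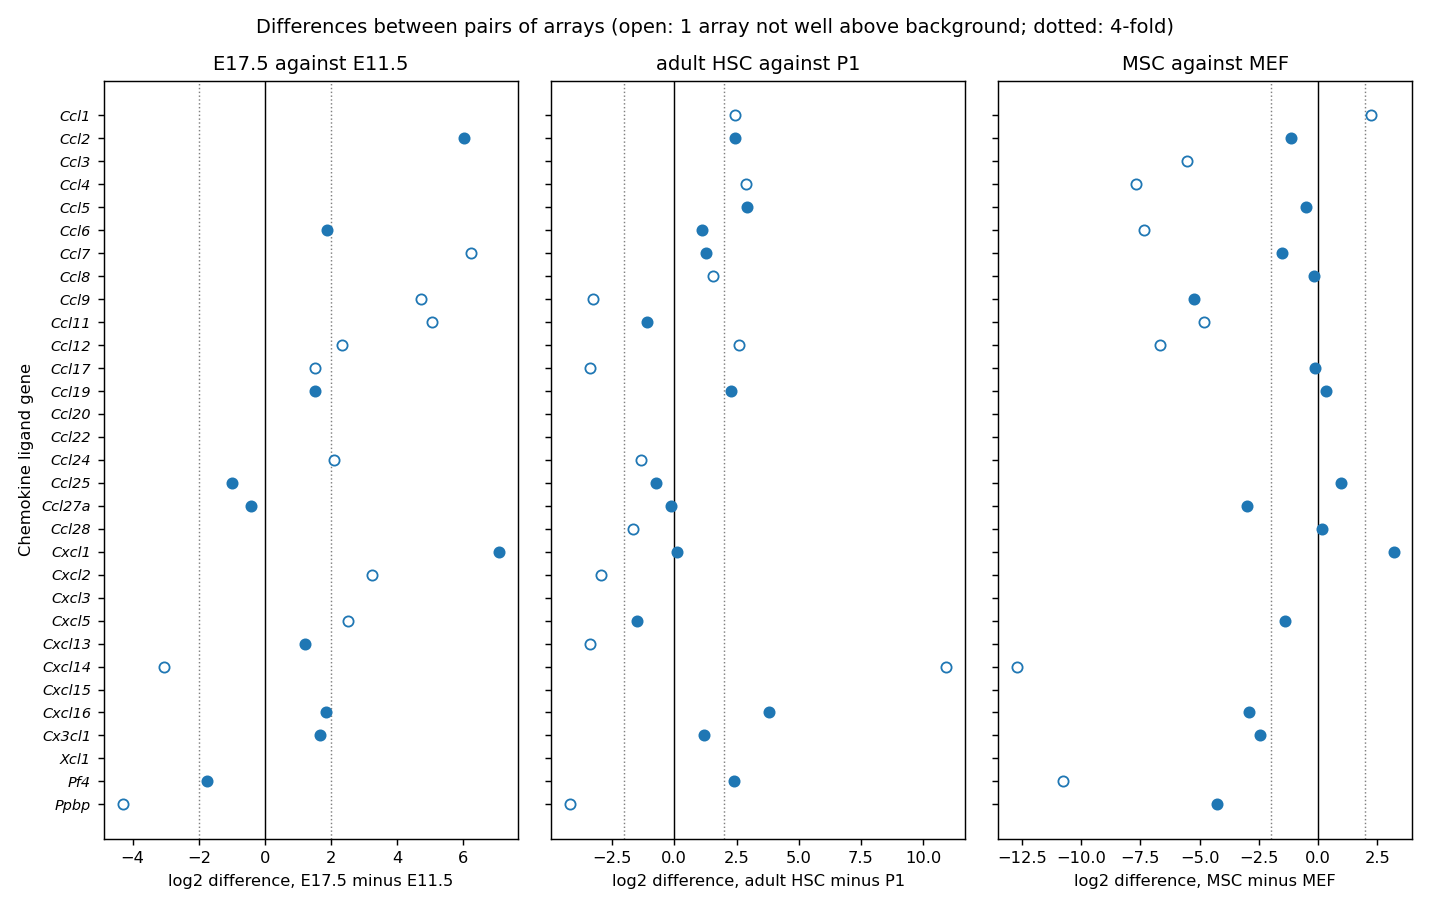
Log2 differences of the ligands in the 3 pairs of arrays (E17.5 minus E11.5, adult HSC minus P1, MSC minus MEF), 1 circle for each ligand with at least 1 side above background, open where only 1 side was, with dotted lines at 4-fold. Past the lines lie 9 higher and 2 lower, 9 higher and 5 lower, and 2 higher and 12 lower ligands.

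Liver-derived cells against the other mesenchymal cells asked which ligands set the 6 liver arrays apart from MEF and MSC. With limma, 0 of 26 ligands passed an adjusted p of 0.05, against 1.58% of 16408 genes, and 4 of 26 (15.4%) passed an unadjusted p of 0.05, against 19.6% of all genes. These were 2 higher in liver-derived cells, against 10.5% of genes, and 2 lower, against 9.12%, so the shares were near the background. All 6 liver arrays were above both others for Ccl27a and Cxcl2, against 12.6% of genes, and below both for Ccl5 and Cxcl5, against 10.8%. For Ccl27a this held on its brightest probe and not on the dimmest one, where 3 liver arrays lay below MEF. Cxcl2 was below background on both other arrays and on 4 of the 6, so its order rests on signals below background. The median difference was -0.23 for the ligands and 0.01 for all genes. Dividing by the array median moved the latter to -0.36.

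Ccl5 was lower in liver-derived cells by a log2 difference of -6.53 ± 1.38 (SE, limma adjusted p = 0.0703) and Cxcl5 by -6.12 ± 1.57 (limma adjusted p = 0.115). Ccl27a was higher by 2.12 ± 0.68 (limma adjusted p = 0.167) and Cxcl13 by 3.36 ± 1.24 (limma adjusted p = 0.205). Within slide 2, which holds P1, adult HSC, MEF and MSC, the differences were -4.37 for Ccl5, -3.65 for Cxcl5, 1.83 for Ccl27a and 1.60 for Cxcl13. Without the MEF array, which carried the macrophage markers, they were -6.27 for Ccl5 (limma adjusted p = 0.110), -5.43 for Cxcl5, 3.63 for Ccl27a (limma adjusted p = 0.0032) and 4.11 for Cxcl13. Ccl27a, Ccl6 and Pf4 were then the 3 of 25 ligands called, all against the MSC array alone, with 1277 of 16171 genes called. Without MSC the Ccl27a difference was 0.62, and Ccl3 and Ccl4 were called lower in liver-derived cells, with 243 of 16102 genes called. Without adult HSC, Ccl5 and Cxcl13 were called (limma adjusted p = 0.0101 and 0.0250), with 522 of 16290 genes called.

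**Figure D5:**
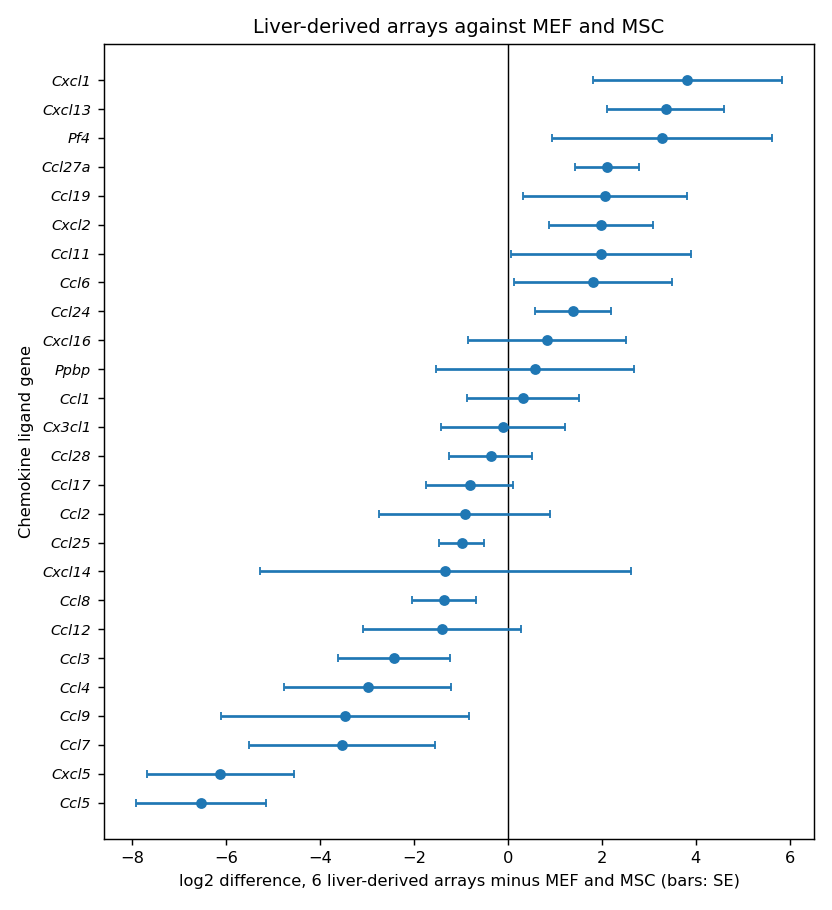
Log2 difference of the 26 ligands tested, mean of the 6 liver-derived arrays minus the mean of MEF and MSC, with bars of 1 standard error from the limma fit; signals below background enter as measured. Ccl5 (-6.53) and Cxcl5 (-6.12) lie lowest, Cxcl1 (3.82) highest, and Cxcl14 has one of the widest bars.

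The receptors and scavengers of these ligands were counted from a list of 23 genes. Between 7 and 13 of them were above background on an array, with 7 at E11.5 and 13 in MEF. Ccr2, the receptor of Ccl2 and Ccl7, was below background on all 8 arrays, as were Ccr1, Ccr10, Cxcr2 and Xcr1. In the slope fit with limma 0 of 15 passed an adjusted p of 0.05, with 4 upward and 0 downward at an unadjusted p of 0.05, against 12.5% and 15.5% of all genes. The 4 were Cxcr4, Ccrl2, and Ackr2 and Ackr4, atypical receptors that bind chemokines without signalling and clear them. Cxcr4, Ackr2 and Ackr4 passed the filter through later stages alone and could hardly slope downward, so these shares support no call. Ackr2, which binds inflammatory CC chemokines, was below background at E11.5 (-5.98) and E13.5 (-5.90), and stood at -4.39 at E14.5, 0.20 at E17.5 and -0.04 at P1. Ackr4, which binds Ccl19 and Ccl25, was below background at E11.5 (-7.18), and stood at -5.67 at E13.5, -4.03 at E14.5, -1.52 at E17.5 and -0.63 at P1. The E17.5 level was at least 47.1-fold above E11.5 for Ackr2 and at least 14.3-fold for Ackr4.

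In adult HSC the atypical receptor Ackr1 stood at 2.90 and Ccrl2 at 2.27, against -1.96 and -1.36 at P1. Ackr3, which scavenges Cxcl12, was the reverse, with -3.80 in adult HSC and 1.70 at P1, a 45.1-fold difference. These were the 3 receptors 4-fold or more apart of 11 tested in that pair, against 21.2% of all genes.

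The NF-kB pathway and its inputs were counted from a list of 30 genes. In the slope fit with limma 0 of 26 passed an adjusted p of 0.05, with 15 upward and 1 downward at an unadjusted p of 0.05, against 12.5% and 15.5% of all genes. Tnf, Il6 and Icam1, among the upward ones, passed the filter through later stages alone and could hardly slope downward, so these shares support no call. Il6, a cytokine of inflamed tissue, was below background at E11.5 (-7.40) and E13.5 (-8.14) and had levels of -4.22 at E14.5 and 0.78 at P1, and was above background at E17.5 as well. Nfkbia, which encodes the inhibitor IkB-alpha and is itself an NF-kB target, had levels of 3.00, 4.59, 5.41, 6.34 and 5.39 over the stages, 6.14 in adult HSC, 2.42 in MEF and 3.05 in MSC. Its lowest liver-derived array was E11.5 and its highest E17.5, as for Cxcl1. Other genes of the list differed, with a slope of -0.75 log2 units a stage for Il1rap, -0.09 for Chuk, -0.05 for Traf6 and 0.01 for Ikbkb. Whether NF-kB activity had a part in the ligand levels was not tested. Between E17.5 and E11.5, 12 of 25 genes of the list were 4-fold or more higher and 1 lower, against 7.37% and 5.01% of all genes. Some of the higher ones, such as Il6 and Icam1, were below background at E11.5 and passed the filter through E17.5 alone. Il1a and Il1b were below background on all 8 arrays, and Tnf was above it at P1 (-5.33) and in MEF (-4.71) only.

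Of ligands outside the 32, Cxcl10 had levels of -2.44 at E11.5, 1.05 at E13.5, 3.35 at E14.5, 4.05 at E17.5 and 3.26 at P1, and 4.49 in adult HSC, 0.37 in MEF and -2.50 in MSC. As for Ccl2 and Cxcl1, E11.5 was the lowest of the 5 stages and E17.5 the highest.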

How the data were processed

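Total RNA of 8 sorted or cultured cell samples was hybridised to 1-colour Agilent arrays, 1 array per group. The deposited intensity values are background-subtracted, spatially detrended spot signals from Agilent Feature Extraction 11.5.1.1, per the file headers, with no scaling between arrays. The authors' deposited log2 table was divided by each array's 75th percentile, per the labels. The values computed here, minus its values, had array medians from -0.154 to -0.102, and at least 93.2% of probes on each array then matched within 0.02. Medians of its columns ran from -4.48 to -3.55.

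Here log2 signals minus each array's log2 75th percentile were used, outlier spots dropped and spots of a probe averaged. The files carry no gene names, so probes were named through their accession in RefSeq (67.4% of 39429 probes). Each gene was represented by its brightest probe on average, and for Ccl19, Ccl25 and Ccl27a, which have several, others are described. A ligand was above background if any probe was so on at least 50% of its spots. Models were fitted in limma (version 3.58.1, under R 4.3.3), adjusted by Benjamini-Hochberg over all genes tested, and tested on simulated data. No array is a replicate, so the spread comes from different stages or cell types. Where 1 side of a pair was below background, the ratio is a bound against the lowest signal well above background there. Pairs were called at 4-fold.

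Alternatives were normexp correction (offset 50, on median spot signals), quantile and median normalization, 2 other filters, averaging a gene's probes, the deposited log2 table, a floor, slide as a block, 1 slide only, another variance prior and leaving out each array. Every ligand is accounted for. Of the other lists, up to 4 genes with the largest difference were to be named, and further ones (among them Treml1, Gp9, Nfkbia, Alb, S100a9, Adam10 and the genes below background) were chosen after their values were seen. The ligands, lists and tests were chosen with earlier results of these data known.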

Additional observations from a re-analysis of the deposited data

How the results depend on the processing

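No paired analysis was possible because the labels give no replicate numbers and each group has 1 array. Counts of ligands above background stayed within 1.5 times on every array under both alternatives. In the liver comparison 0 ligands were called, 2 with low values raised to each array's lowest signal above background, called the floor here (Ccl5 and Cxcl5, both lower), and 0 to 3 when 1 array was left out. In the slope 0 were called, 1 with quantile normalization (Ccl11), 1 with only genes above background on every array (Cxcl1), 4 with a variance trend and robust prior (Ccl11, Ccl7, Cxcl1 and Pf4), and 0 whichever array was left out. Of all genes, the liver floor called 299 of 16408, and the 3 slope settings 99 of 15492, 610 of 12689 and 1131 of 15492, against 0 of 15492 in the slope as reported.

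For E17.5 against E11.5, 11 ligands were 4-fold apart, 2 with normexp, 2 with both arrays above background and 6 with the floor. For adult HSC against P1 the 14 became 5, 5 and 9 in the same order, and for MSC against MEF the 14 became 8 with normexp and 6 with both arrays above background. Normexp turned the slopes of Ccl17 (-0.14), Ccl24 (-0.28), Cxcl16 (-0.020), Cxcl2 (-0.22) and Cxcl5 (-0.047), and Ccl24 at E17.5 against E11.5 turned to -0.16 with normexp and -0.17 with the floor. The floor and the filter change values by their construction, since most of these ligands are near background on 1 side, and for the other settings the cause was not tested. Adjusted p in limma ranged over the alternatives from 0.0273 to 0.883 for the Ccl11 slope, from 0.0398 to 0.274 for Cxcl1, and from 0.0101 to 0.535 for the Ccl5 liver difference. With 1 array a group, no spread between animals is known.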

Other observations

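Genes that act on chemokines outside the cell were counted from a list of 10 proteases and proteoglycan carriers, and 9 or 10 of them were above background on every array but MSC. Between E17.5 and E11.5 none of 9 tested was 4-fold apart, against 12.4% of all genes. None of the 9 in the slope passed an adjusted p of 0.05 in limma, as 0% of all genes did. At an unadjusted p of 0.05 in limma there were 2, against 27.9% of all genes. Sdc1, a heparan sulfate proteoglycan of the cell surface, stood between 1.08 and 1.99 on 7 arrays and at -4.00 in adult HSC. Sdc4, its relative, had levels of -3.88 at E11.5, -0.41 in adult HSC and 1.43 in MSC, the highest array. Mmp2, a matrix protease that also trims Ccl7, lay between 2.73 and 4.86 on 7 arrays and was below background in MSC (-8.78).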
